A study of Mus musculus with 12 samples.

Results

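The livers described here came from germ-free male mice, animals raised without any microbes, that had been injected with phosphate-buffered saline (PBS) as the control of a growth hormone experiment. They supplied 6 of the 12 RNA libraries of the series, and the other 6, from males given growth hormone, are not used here. All mice were C57BL/6j of 13 to 16 weeks, and the labels name no mutation, transgene or other agent. Injections under the skin were given at zeitgeber time (ZT, hours counted from lights on) 2 and ZT 14 on 5 days, and the samples carry the label ZT 2. The labels number the samples without stating that each is a separate animal, so the spread given here is that between these 6 libraries. Called PBS 1 to PBS 6 here, they were total RNA libraries depleted of ribosomal RNA, and the data are counts of reads on exons.

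Genes were described if they had at least 10 counts in each of the 6 libraries. This kept 13293 of 38087 genes in the table, which held 99.8% of all counts. The lowest count was exactly 10 for 146 genes and exactly 9, just outside, for 169 genes, with a median of 102 and 92 counts over the 6 libraries.

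The liver makes most proteins of the blood plasma, converts and stores sugar and fat, and clears drugs, steroids and bile acids. Much of its transcription follows the circadian clock, a loop in which ARNTL (BMAL1) with CLOCK or NPAS2 switches on genes at E-box sequences, and PER, CRY and NR1D proteins repress it. Growth hormone reaches the liver in pulses in male rodents, and through its receptor, JAK2 and STAT5B it keeps male-biased genes on and female-biased genes off.

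Library totals ran from 19523104 to 23278931 counts, and no pair of libraries matched within counting noise (chi-square per degree of freedom 16.1 to 73.3 over 15 pairs). Hepatocyte markers were high in all 6, with albumin (Alb) between 66637 and 84365 CPM (counts per 1000000 counts of the library, scaled by the trimmed-mean, TMM, factors of edgeR). Of the T and NK cell markers 1 of 9 passed the filter, of the neutrophil markers 1 of 6, and of the adipocyte and exocrine pancreas markers none, with Plin1, Lep, Cpa1, Prss2, Ctrb1, Pnlip, Mpo and Krt5 at 0 counts in every library. PBS 5 stood farthest from the rest: it held the highest value for 24.99% of genes and the lowest for 23.6%, against 10.3% and 10.7% in PBS 6. The first 3 principal components of log2 CPM carried 33.6%, 27.2% and 16.6% of the variance.

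Plasma protein genes held most of the highest ranks. Only 18 genes held 25% of all counts, 139 genes held 50% and 3667 genes held 90%. Ranked by CPM per kilobase of exon, so that genes of different length can be compared, the 20 highest included Alb, the apolipoprotein genes Apoa2, Apoa1, Apoe and Apoc1, transferrin (Trf), transthyretin (Ttr), the vitamin D carrier Gc, fetuin-A (Ahsg), the major urinary protein Mup3 and the serine protease inhibitors Serpina3m, Serpina3k, Serpina1e and Serpina1b. On this scale, set to sum to 1000000 over genes, Alb stood at 65020 and Apoa2 at 17067.

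Not every high rank belongs to a plasma protein. Of the 20 highest, 5 were models shorter than 400 bases that code for no protein, among them 7SK, a nuclear RNA that restrains transcription elongation, and the RNA parts of RNase P and RNase MRP. The highest of all, the 57-base microRNA model AC087541.1 (chr16:11144125-11144181, GRCm38), had 3821 ± 995 CPM (SD, n = 6). AC151602.1, a 109-base microRNA model, lies within an exon of the ferritin gene Ftl1, Gm20425 shares exons with Trf and Srprb, and Serpina3k shares exon bases with Serpina3m, so reads in these places cannot be assigned to 1 gene with certainty. Gm20425 and Trf had nearly equal levels, 18630 and 18619 CPM, and CVs of 12.5% each, so they are not separate measurements. How such reads were counted is not stated in the labels or the table.

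Most of the abundant genes varied little. Among the 26 plasma protein genes measured, the median coefficient of variation (CV, the SD over the mean of CPM across 6 libraries) was 8.20%. Over all genes it was 14.2%. None of the 26 reached a CV of 50%, as 1.92% of all genes did. Ttr, which carries thyroid hormone and retinol-binding protein, had the smallest CV of the list at 4.16%, with 5681 ± 237 CPM (SD, n = 6). Haemopexin (Hpx), which binds free haem, had the largest at 23.3% and was highest in PBS 5 with 4863 CPM, the other libraries lying between 2640 and 3728. Outside that list, Serpina1e, an antitrypsin gene with male bias, was among the 20 most abundant per length and yet had a CV of 50.3%, ranging from 2799 CPM in PBS 1 to 12903 CPM in PBS 5.

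Across the transcriptome the interquartile range of the CV was 9.52 to 21.6%, and the highest library exceeded the lowest by a median of 1.47-fold. A CV of at least 50% was reached by 255 genes, 1.92% of the 13293 measured, and a CV of at least 100% by 22 genes, 0.166%. The highest library was at least 10-fold the lowest for 42 genes. Counting error adds to the CV of rare transcripts: the median was 27.1% in the tenth of genes lowest in mean CPM and 11.1% in the tenth highest, and with the expected Poisson part removed the overall median was 11.6%. In bulk liver, fewer cells of a type and less RNA per cell cannot be told apart.

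**Figure D1:**
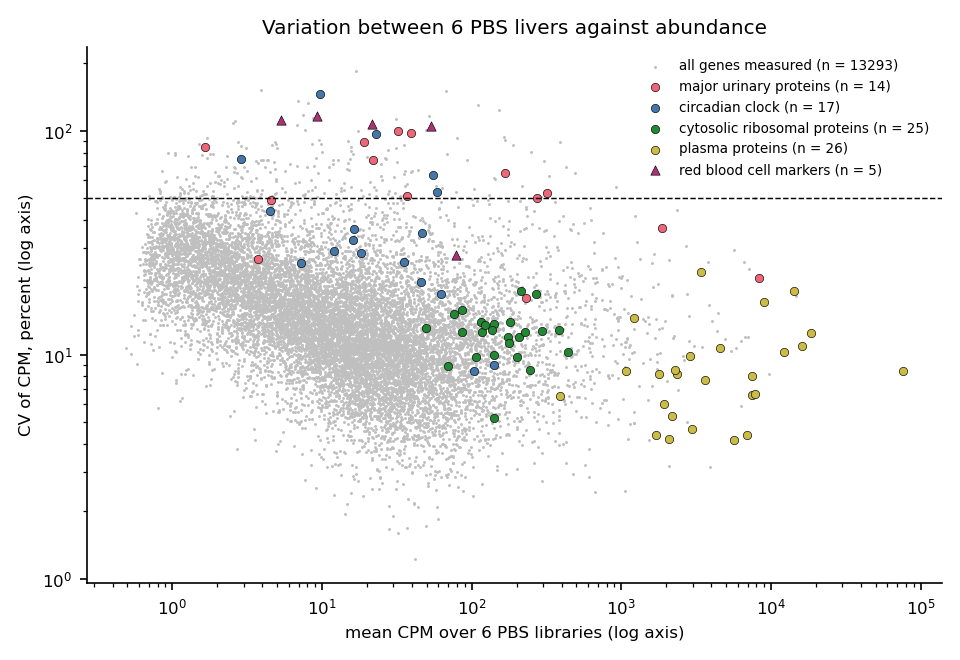
Each grey point is 1 of 13293 genes, with the mean CPM over 6 PBS libraries on the x axis and the CV in percent on the y axis (both log axes), and coloured points mark 5 gene lists. The dashed line marks a CV of 50%, which 9 of 14 major urinary protein genes and 4 of 5 red blood cell markers passed. None of the plasma protein genes did, and 1.92% of all genes reached it.

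The most variable genes were of several kinds, and for 16 of the 25 highest in CV a single library lay far from the other 5. Moxd1, a monooxygenase-like gene, spanned 1.11 CPM in PBS 1 to 269 CPM in PBS 4, with a median of 36.6 CPM. Gsta1, a glutathione S-transferase, lay between 1.14 and 2.56 CPM in 5 libraries and at 16.0 CPM in PBS 5. Without PBS 5 its CV dropped from 152% to 41.1%.

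Another 4 of these genes were highest in PBS 3. Marco, a scavenger receptor of macrophages, had 29.7 CPM there and 2.38 to 6.31 CPM elsewhere. Cyp26a1, which breaks down retinoic acid, had 100.1 CPM in PBS 3 and 7.34 to 35.5 CPM in the others. The chemokine Cxcl13 had 8.33 CPM in PBS 3 and at most 2.72 CPM in the rest. A copy of the spliceosomal RNA U2 (chr1:72226240-72226430, GRCm38) had the highest CV of all, 184%, again from PBS 3, at 80.5 CPM against a median of 4.57 CPM. Many near-identical copies of U2 exist, so reads may be split among them.

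Lars2, the mitochondrial leucyl-tRNA synthetase, and the unplaced model AC115697.1 followed each other over the libraries. Lars2 read 390 CPM in PBS 1, 124 in PBS 6, 102 in PBS 3, 31.5 in PBS 2, 10.1 in PBS 4 and 7.31 in PBS 5. AC115697.1 read 167, 61.4, 47.5, 20.9, 7.48 and 7.31 CPM in the same order of libraries, and its ID was not found in GENCODE M21. Tff3, a secreted trefoil peptide, and Cdc42ep5, an effector of CDC42, were each highest in PBS 5, at 28.5 and 8.12 CPM, with the remaining libraries at or under 6.47 and 2.56 CPM.

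**Figure D2:**
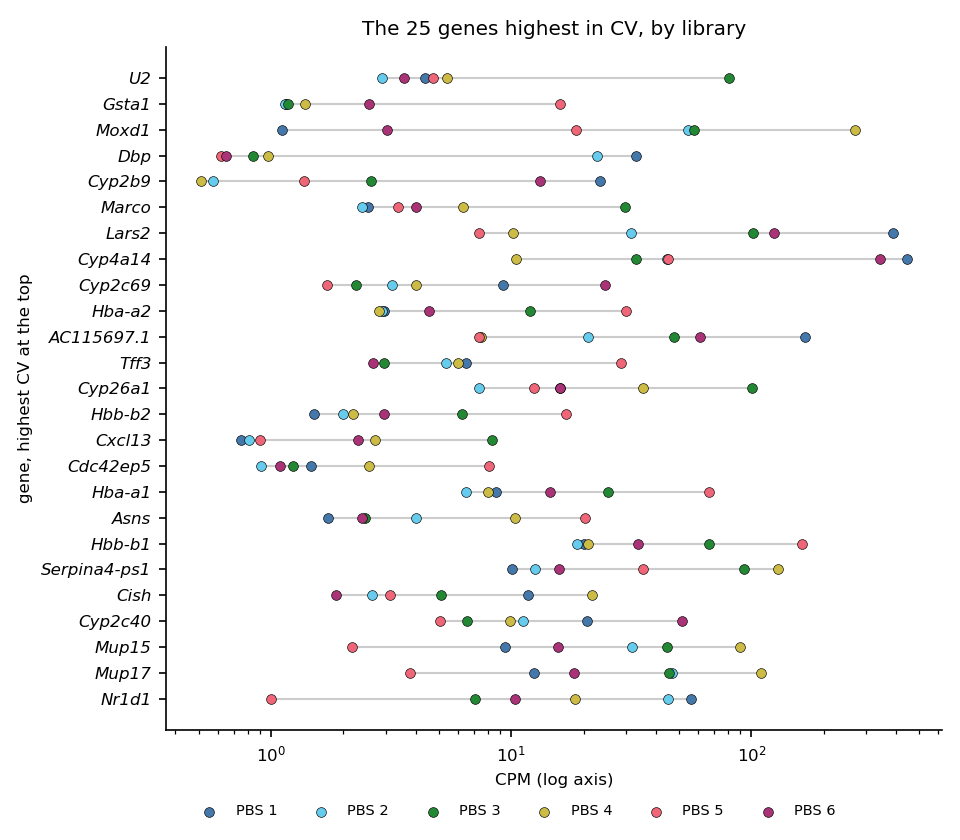
CPM (x axis, log) of the 25 genes highest in CV (y axis, highest at the top), with 1 point per PBS library and a grey line from the lowest to the highest. PBS 5 lies alone on the right for Gsta1, Tff3 and the 4 globin genes, and PBS 3 for U2, Marco, Cyp26a1 and Cxcl13.

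At the other end were genes whose spread was no larger than counting error. With the Poisson part removed, none of the 10 genes lowest in CV had any CV left, as was so for 990 genes in all, so their order is not informative. Capzb, a subunit of the actin capping protein, had the smallest CV of all, 1.22%, at 41.9 ± 0.513 CPM (SD, n = 6). Dcaf12, a substrate receptor of a ubiquitin ligase, Chmp4b, which takes part in membrane scission, and Faf1, a ubiquitin-binding adaptor, had CVs of 1.67%, 1.68% and 1.71%. Crebl2, Myo1c and Ergic3, together with Mipol1 and the model Gm12669, were also among the 10 lowest, with CVs under that of Fam193b at 2.12%. Mipol1 shares exon bases with Prps1l3, so its value is less certain. The mean levels of the genes named here among the 10 lowest ran from 14.2 CPM for Gm12669 to 59.6 CPM for Crebl2.

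Gene lists by function differed both in how much their members varied and in whether they varied together. Of 27 lists, 8 had a median CV of at least 25% and 10 had a median Pearson r of at least 0.5 over pairs of their genes, where the median over all gene pairs was 0. The highest median CV belonged to the major urinary proteins (51.9%), then female-biased genes (48.1%), immediate-early genes (45.6%), male-biased genes (36.7%), the circadian clock (32.5%), GH and STAT5 signalling (28.9%), fatty acid synthesis (28.2%) and the cell cycle (26.9%). The lowest belonged to the proteasome core (6.49%), plasma proteins (8.20%) and the respiratory chain (9.38%).

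**Figure D3:**
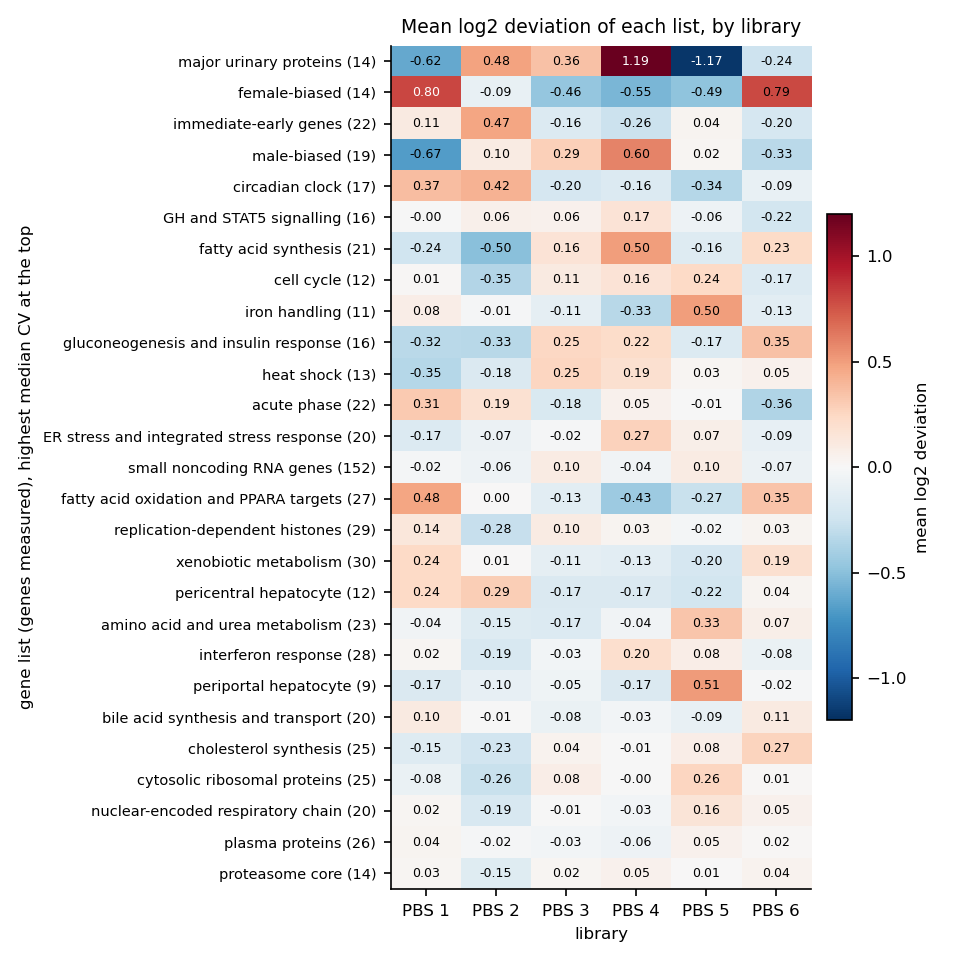
Rows are 27 gene lists ordered by median CV with the number of genes measured in brackets, columns are the 6 PBS libraries, and colour and number give the mean log2 deviation of the list's genes from their own means. Major urinary protein genes ran from 1.19 in PBS 4 to -1.17 in PBS 5, while the proteasome core stayed between -0.15 and 0.05.

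Many clock genes split PBS 1 and PBS 2 from the other 4 libraries, although all 6 carry the same ZT label. Of 19 clock genes 17 were measured, 15 of them with a CV above that of the median gene and 5 at or above 50%. Over all genes, 1.92% reached 50%. Dbp, a transcription factor driven directly by ARNTL and CLOCK, had 33.0 CPM in PBS 1 and 22.7 in PBS 2 but 0.617 to 0.974 CPM in PBS 3 to PBS 6. Its relative Tef had 108 and 90.4 CPM in PBS 1 and PBS 2 and 28.6 to 36.0 CPM in the rest. This split was read off the clock genes themselves, and the share of all genes that separate the same libraries was not counted.

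The repressors Nr1d1 and Nr1d2 (REV-ERB alpha and beta) were also highest in PBS 1 and PBS 2. Nr1d1 had 56.0 and 44.8 CPM there, 18.5 in PBS 4, 10.3 in PBS 6, 7.10 in PBS 3 and 0.997 CPM in PBS 5. Per3, a period gene, had 4.47 and 6.58 CPM in PBS 1 and PBS 2 and at most 1.90 CPM elsewhere. Cry2 and Hlf showed the same split with smaller steps, 22.5 to 23.3 against 11.4 to 14.3 CPM and 23.4 to 26.1 against 14.1 to 16.1 CPM.

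Genes of the opposite arm were lowest in PBS 1 and PBS 2. Arntl had 23.1 and 28.4 CPM there and 33.9 to 49.6 CPM in the other 4, with its highest value in PBS 5. Npas2, its partner, had 1.64 and 2.53 CPM against 4.66 to 6.27 CPM. Nfil3, a repressor that competes with DBP, had 29.6 and 23.8 CPM against at least 50.7 CPM.

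Other clock genes did not follow this split. Cry1 ran from 9.66 CPM in PBS 1 to 26.6 CPM in PBS 5, with PBS 4 at 12.6 CPM below PBS 2 at 13.5. Per1 was lowest in PBS 4 at 6.41 CPM and highest in PBS 5 at 16.1 CPM, and Per2 ranged from 4.86 in PBS 2 to 10.2 CPM in PBS 5. Bhlhe40 had a CV of 18.7%, Rora of 8.97% and Clock itself of 8.48%, the lowest of the list, with 90.8 to 114 CPM. Members of the 2 arms thus had opposite signs, and the median r over pairs of the list was -0.02. Arntl and Npas2 ranked the 6 libraries in the same order (r = 0.94, adjusted p = 0.012, two-sided exact permutation test). The test ran over 720 orderings with Benjamini-Hochberg over 26 gene pairs, which were chosen with earlier results of these data known. Both genes were lowest in PBS 1 and PBS 2, so r over all 6 spans that split. Without PBS 1 and PBS 5, r was 0.99.

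The letters that ARNTL and CLOCK are known to bind are shown in the promoter of Tef, because both of its listed windows hold them. The sequence is from RefSeq (GRCm38.p6, chr15:81811164-81811463, plus strand) and spans 250 bases before to 50 after the start, with the E-box in capitals.
Tef: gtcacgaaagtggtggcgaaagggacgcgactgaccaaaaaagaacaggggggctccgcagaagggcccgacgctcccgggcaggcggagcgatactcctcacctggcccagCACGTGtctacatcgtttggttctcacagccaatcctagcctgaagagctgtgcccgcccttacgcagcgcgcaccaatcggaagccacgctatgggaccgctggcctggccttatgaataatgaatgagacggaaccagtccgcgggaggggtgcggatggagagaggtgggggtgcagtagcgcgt
A match is a description, not a site or a cause. The motif CACGTG reads the same on both strands and occurs in 7.15% of 32851 promoters of this length. It was in 1 of 2 listed promoters of Per1, and these letters were not in the windows of Dbp, Nr1d1, Nr1d2 or Per3.

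Genes of GH and STAT5 signalling had a median CV of 28.9%, and 12 of the 16 measured lay above the median gene. The steadier members included Ghr, Jak2, Stat5b and Igf1. Ghr, the receptor, had 528 to 694 CPM (CV 9.90%), Jak2 26.5 to 34.0 CPM (9.69%), Stat5b 62.1 to 95.2 CPM (13.4%) and Igf1, the main circulating growth factor under GH control, 411 to 553 CPM (10.4%). Igfals, the acid-labile subunit that keeps IGF1 in the blood, had a CV of 15.8% and its highest value, 104 CPM, in PBS 5. On this list, 5 genes had a CV of at least 50%, against 1.92% of all genes.

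Cish, a feedback inhibitor switched on by STAT5, varied most (CV 101%), with 21.7 CPM in PBS 4, 11.7 in PBS 1, 5.13 in PBS 3, 3.13 in PBS 5, 2.62 in PBS 2 and 1.87 CPM in PBS 6. Socs2, another such inhibitor, was also highest in PBS 4 (26.4 CPM) and lowest in PBS 6 (4.74 CPM), but PBS 1 was second lowest at 8.15 CPM. Bcl6, a repressor that STAT5 is known to silence, had its lowest values in PBS 1 (7.09 CPM) and PBS 4 (11.1 CPM), the libraries highest in Cish, and its highest in PBS 2 (56.7 CPM) and PBS 6 (42.8 CPM). Across all 6 libraries neither Cish and Socs2 (r = 0.56, adjusted p = 0.30) nor Cish and Bcl6 (r = -0.74, adjusted p = 0.19) passed the exact permutation test.

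Onecut1 (HNF6), a hepatocyte factor that responds to GH, was highest in PBS 4 at 37.8 CPM and lowest in PBS 6 at 6.21 CPM, though the model Gm20649 overlaps it. Socs3, an inhibitor of cytokine signalling through STAT3, followed PBS 1 and PBS 2 instead, with 19.4 and 15.3 CPM there and 2.87 to 8.46 CPM in the others. Stat3 was likewise highest in those libraries, at 166 and 191 CPM against 128 to 153 CPM. Stat5a had 12.1 and 13.0 CPM there but 10.8 CPM in PBS 6 and 6.05 CPM in PBS 4.

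The binding proteins of IGF1 each had their own pattern. Igfbp1, induced by fasting, ran from 88.3 CPM in PBS 1 to 348 CPM in PBS 6, with 161 and 168 CPM in PBS 5 and PBS 2. Igfbp2 was highest in PBS 1 at 291 CPM and lowest in PBS 4 at 122 CPM, and Igfbp3, which here was highest in PBS 5 at 31.6 CPM, had a CV of 30.9%. The prolactin receptor Prlr ranged from 73.8 CPM in PBS 4 to 144 CPM in PBS 5 and overlaps the model RP23-74N15.4.

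The promoter of Cish is shown because it was the most variable gene of this list and its window holds 2 stretches of the form that STAT proteins bind. The sequence is from RefSeq (GRCm38.p6, chr9:107296409-107296708, plus strand), 250 bases before to 50 after the start, with the stretches in capitals.
Cish: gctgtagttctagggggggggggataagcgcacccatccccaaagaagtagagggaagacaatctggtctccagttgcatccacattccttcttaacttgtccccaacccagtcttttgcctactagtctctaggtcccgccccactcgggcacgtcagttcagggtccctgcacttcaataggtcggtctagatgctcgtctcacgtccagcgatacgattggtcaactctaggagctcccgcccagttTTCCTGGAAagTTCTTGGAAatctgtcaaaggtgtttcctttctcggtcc
The motif TTCNNNGAA, where N is any base, reads the same on both strands and occurs in 8.30% of 32851 promoters. Both listed promoters of Bcl6 held it and the windows of Igf1 and Onecut1 did not. Neither motif kept to 1 list. TTCNNNGAA was also in the window of the clock gene Dbp and in 1 of 2 listed promoters of Per1. The E-box CACGTG was also in the window of Onecut1 and in 1 of 2 listed promoters of Bcl6.

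**Figure D4:**
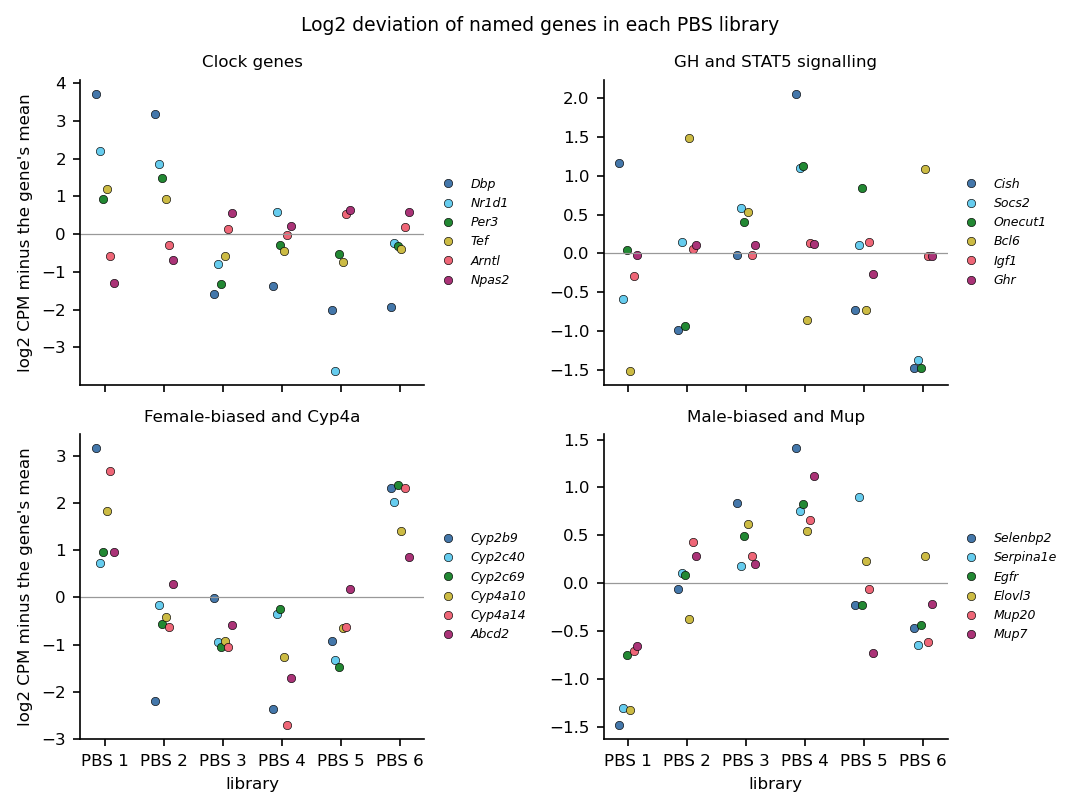
Each panel gives log2 CPM minus the gene's own mean (y axis) in each of the 6 PBS libraries (x axis) for 6 named genes, 1 point per library. Dbp, Nr1d1, Per3 and Tef lie above 0 in PBS 1 and PBS 2, Cyp4a10, Cyp4a14 and the female-biased genes are highest in PBS 1 and PBS 6, and male-biased genes are lowest in those libraries or in PBS 5.

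Sex-biased genes, which in mouse liver depend on the GH pattern, varied among these males in opposite directions. Male-biased genes had a mean log2 deviation of 0.60 in PBS 4, -0.67 in PBS 1 and -0.33 in PBS 6, and female-biased genes of 0.80 in PBS 1 and 0.79 in PBS 6 with -0.09 to -0.55 in the rest. All 19 male-biased genes measured had a CV above that of the median gene, and 13 were highest in PBS 4 and 13 lowest in PBS 1, against 17.2% and 15.6% of all genes.

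Selenbp2, a selenium-binding protein, had the largest CV of the male-biased list, 69.2%, with 126 CPM in PBS 1, 254 in PBS 6, 300.2 in PBS 5, 336 in PBS 2, 627 in PBS 3 and 933 CPM in PBS 4. The epidermal growth factor receptor Egfr had 683 CPM in PBS 1 and 2048 in PBS 4, and Gstp1 324 and 954 CPM. Cyp7b1, which hydroxylates oxysterols, had 136 CPM in PBS 1 and 337 in PBS 4. Elovl3, a fatty acid elongase, was also lowest in PBS 1 (139 CPM) but highest in PBS 3 (535 CPM). Of the 6 male-biased genes not lowest in PBS 1, 3 were lowest in PBS 5, among them the organic anion carrier Slco1a1 and Cyp2d9, at 339 and 482 CPM.

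Of the female-biased genes 14 of 27 passed the filter, against 19 of 21 male-biased genes. The filter asks for 10 counts in each library, so a gene that failed it may still be expressed in some. Cyp2a4, for example, failed the filter but was detected, with its highest level in PBS 5. Cyp2b9 had 23.5 CPM in PBS 1 and 13.2 in PBS 6, and 0.513 to 2.61 CPM in the others. Cyp2c40 and Cyp2c69 were highest in PBS 6, at 51.4 and 24.6 CPM, and next in PBS 1, at 20.8 and 9.21 CPM. Cyp2c38 and Cyp2c39 were likewise highest in PBS 1 and PBS 6, and Abcd2, a peroxisomal transporter, had 13.2 and 12.5 CPM there against 2.10 to 8.34 CPM. Of the 14 measured, 8 were highest in PBS 1 and 2 in PBS 6, against 16.5% and 10.3% of all genes. Another 2 were highest in PBS 2 and 2 in PBS 5, against 19.9% and 24.99% of all genes. Among the genes that differed was Cyp17a1, a steroid hydroxylase, with 84.1 CPM in PBS 5. Cyp2b and Cyp2c genes are close copies of each other, so reads may be shared between them.

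Major urinary proteins, small pheromone carriers encoded by a cluster of near-identical genes on chromosome 4, were the most variable list and moved together. Of 21 genes 14 were measured, 9 with a CV of at least 50%, against 1.92% of all genes. The median r over pairs was 0.86. PBS 4 had the highest value for 13 of 14 and PBS 5 the lowest for 10 of 14. Over all genes these shares were 17.2% and 23.6%. Mup7 had 625.5 CPM in PBS 4, 349 in PBS 2, 330 in PBS 3, 247 in PBS 6, 183 in PBS 1 and 173 CPM in PBS 5. Mup15 spanned 2.18 to 89.2 CPM and Mup17 3.80 to 109 CPM.

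The most abundant member, Mup3, varied less, from 5299 CPM in PBS 5 to 10130.4 CPM in PBS 4. Mup20 (darcin) had 1084 CPM in PBS 1 and 2808 in PBS 4, and it tracked Mup21 (r = 0.92, adjusted p = 0.018, two-sided exact permutation test; r = 0.89 without PBS 1 and PBS 6). Mup10 had the smallest CV of the list, 17.96%, and Mup2 one of 26.8%. Because the genes are near-identical, values of single members are uncertain, while their summed level, 11302 ± 2832 CPM (SD, n = 6), is less open to misassigned reads.

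The fatty acid hydroxylase genes Cyp4a10 and Cyp4a14 were highest in PBS 1 and PBS 6. Cyp4a14 had 443 and 343 CPM in those libraries and 10.5 to 44.8 CPM in the other 4, and Cyp4a10 had 412 and 307 CPM against 48.2 to 87.0 CPM. Both are textbook targets of PPARA, the receptor that senses fatty acids. The list of fatty acid oxidation genes had a median r of 0.56. Of its 27 genes 16 were highest in PBS 1 and 15 lowest in PBS 4, against 16.5% and 18.3% of all genes. Vnn1 (14.9 and 9.73 CPM against 1.95 to 5.34 CPM) and Cd36, a fatty acid carrier (105 and 96.6 CPM against 37.2 to 72.9 CPM), showed the same order.

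The smallest CVs of the list were those of Hadhb and Hadha, the subunits of the mitochondrial trifunctional protein, 5.02% and 6.30%. Ppara itself was highest in PBS 2 and PBS 1, at 148 and 142 CPM against 64.7 to 92.3 CPM. Angptl4, an inhibitor of lipoprotein lipase, was low in PBS 5 alone, at 30.3 CPM against 126 to 184 CPM.

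Among fatty acid synthesis genes PBS 4 was highest for 12 and PBS 2 lowest for 13 of 21 (median r 0.55), against 17.2% and 21.3% of all genes. Thrsp, a lipogenic cofactor, had 457 CPM in PBS 4, 176 in PBS 3, 159 in PBS 6, 84.1 in PBS 5, 83.4 in PBS 1 and 41.0 CPM in PBS 2. Elovl6 ranged from 32.7 to 218 CPM, the pyruvate kinase Pklr from 33.1 to 291 CPM, and fatty acid synthase (Fasn) from 255 to 756 CPM. Pklr and Elovl6 were lowest in PBS 5, where Srebf1, the regulator of lipogenesis, was highest at 320 CPM. Scd1, the stearoyl-CoA desaturase and the most abundant gene of the list, had 5144 CPM in PBS 5 and 9861 CPM in PBS 4.

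Cholesterol synthesis genes varied by smaller amounts (median CV 15.5%). Of 25 such genes 17 were highest in PBS 6, against 10.3% of all genes. Tm7sf2, which shares exon bases with Vps51, had the smallest CV of the list (8.99%). In bile acid synthesis, Cyp7a1, the rate-limiting enzyme, had 14.1 to 19.2 CPM in PBS 1, PBS 2 and PBS 3 and 39.9 to 48.0 CPM in the other 3, while Amacr varied by 3.75%.

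Several genes of glucose metabolism were low in PBS 1 and PBS 2. G6pc, the last enzyme of glucose release, had 265 and 437 CPM there, 800 in PBS 5, 1112 in PBS 4, 1361 in PBS 6 and 1579 CPM in PBS 3. Pfkfb3, a regulator of glycolysis, had 4.83 and 4.38 CPM in PBS 1 and PBS 2, 5.36 in PBS 5 and 17.1 to 36.3 CPM in the rest. Tat, a tyrosine aminotransferase under glucocorticoid and fasting control, had 1004 and 1116 CPM against 2568 to 3346 CPM. Pck1, which starts gluconeogenesis, had a CV of 14.8%, and the glucose carrier Slc2a2 was low in PBS 5 alone, at 94.5 CPM against 306 to 397 CPM.

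The metallothionein genes and Junb were highest in PBS 1 and PBS 2. Mt1, a metal-binding stress protein, had 431 CPM in PBS 1, 304 in PBS 2, 250.4 in PBS 5, 74.0 in PBS 6, 45.7 in PBS 3 and 29.4 CPM in PBS 4. Mt2 ranked the libraries the same way, from 198 to 11.8 CPM (r = 0.996 between the 2 genes, adjusted p = 0.012, two-sided exact permutation test; r = 0.992 without PBS 1 and PBS 4). Junb, a subunit of AP-1, had 75.7 and 71.9 CPM in PBS 1 and PBS 2 and 10.1 to 26.1 CPM in the rest.

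Within the immediate-early list 9 of 22 genes had a CV of at least 50%, against 1.92% of all genes. The median r was only 0.21. Egr1 had 12.5 and 7.49 CPM in PBS 2 and PBS 1 and at most 2.69 CPM elsewhere. Nr4a1 and Gadd45b were highest in PBS 2 alone, at 13.1 and 4.24 CPM, and Gadd45g in PBS 5, at 34.4 CPM. Jund, a steady member of AP-1, had a CV of 10.9%. The interferon response list varied near the background (median CV 17.1%): Cxcl10, a chemokine, reached 52.5% at 0.487 to 2.17 CPM, and Iigp1, an immunity-related GTPase, ranged from 168 CPM in PBS 5 to 441 in PBS 2.

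Acute phase genes, made in response to inflammation, formed no single pattern (median r 0.17). Saa1 had 19.6 CPM in PBS 6 and 132 CPM in PBS 5, and tracked Saa2 (r = 0.96, adjusted p = 0.018, two-sided exact permutation test; r = 0.70 without PBS 3 and PBS 6). Orm1 and Orm2 also went together (r = 0.95, adjusted p = 0.018 by the same test; r = 0.78 without PBS 4 and PBS 6), both highest in PBS 4. Both pairs were among those chosen with earlier results of these data known. Whether reads were shared between Saa1 and Saa2, or between Orm1 and Orm2, was not tested. Crp, at 294 CPM, was among the steadier genes with a CV of 3.65%.

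Most heat shock genes were lowest in PBS 1. Of 13 heat shock genes 9 were lowest there, against 15.6% of all genes, and without PBS 1 the median CV of the list went from 23.5% to 14.5%. Hspa8, which hosts several small nucleolar RNAs, had 489.8 CPM in PBS 1 against 591 to 919 CPM. Of 20 genes of ER and integrated stress 11 were lowest in PBS 1 and 10 highest in PBS 4. Of all genes, 17.2% were highest in PBS 4. The chaperone Hspa5 led the list, with 614 CPM in PBS 1 and 1245 in PBS 4. Asns, asparagine synthetase, was the most variable of this list (CV 106%), with 20.3 CPM in PBS 5, 10.4 in PBS 4 and at most 4.003 CPM in the rest. Trib3, another target of ATF4, ran from 10.2 CPM in PBS 1 to 1.38 CPM in PBS 5, and the pair did not pass the exact permutation test (r = -0.83, adjusted p = 0.105; r = -0.45 without PBS 1 and PBS 5).

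PBS 5 stood apart in amino acid, periportal and iron genes. It was highest for 16 of 23 amino acid and urea genes, 7 of 9 periportal genes and 8 of 11 iron genes. Of all genes, 24.99% were highest there. Glutaminase 2 (Gls2) had 748 CPM in PBS 5 and 297 to 379 CPM elsewhere, serine dehydratase (Sds) 425 against 157 to 230 CPM, and Ass1 of the urea cycle 4360 against 2147 to 2542 CPM. Hamp, the iron hormone hepcidin, had 732 CPM against 141 to 315 CPM, and the ferritin light chain Ftl1 3206 against 1722 to 2018 CPM.

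The same library was lowest for 8 of 12 pericentral genes, against 23.6% of all genes. Among them were glutamine synthetase (Glul) with 484 CPM against 813 to 946 CPM, and Cyp2e1 with 3376 against 4753 to 8229 CPM. Other genes of these lists barely varied: Otc of the urea cycle had a CV of 2.92%, Cyp2f2 of 5.78% and Gulo of 7.75%. Among xenobiotic genes Cyp3a11, a drug-metabolizing P450, had 12.4 CPM in PBS 5 and 92.1 to 189 CPM in the rest, and Alas1, which starts haem synthesis, 299 CPM against 49.2 to 170 CPM. Left without PBS 5, the median CV of the periportal list went from 16.3% to 8.83% and that of the amino acid list from 18.4% to 11.0%.

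The globin genes of red blood cells were highest in PBS 5 and second in PBS 3: Hbb-b1 had 162 and 66.5 CPM there and 18.8 to 33.6 CPM in the other 4, and Hba-a1 66.6 and 25.2 CPM against 6.48 to 14.5 CPM (r = 0.995 between them, adjusted p = 0.014, two-sided exact permutation test; r = 0.97 without PBS 3 and PBS 5). Slc4a1, the band 3 protein of red cells, failed the filter with at most 14 counts. All 5 red cell markers measured of 6 were highest in PBS 5, against 24.99% of all genes. Among them Alas2 differed little between PBS 5 (99.0 CPM) and PBS 4 (94.7 CPM), with 48.8 CPM in PBS 1. The summed list ran from 81.9 CPM in PBS 1 to 376 in PBS 5. What part these markers have in the values that set PBS 5 apart was not tested.

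Kupffer cell markers did not all peak in the same library. Marco and Emr1 (F4/80, 57.4 CPM against 17.4 to 33.4 CPM) were highest in PBS 3, but Clec4f, the marker most restricted to Kupffer cells, was lowest there at 63.6 CPM, with 67.1 to 97.0 CPM in the others. PBS 2 was lowest for 9 of 11 Kupffer and macrophage markers and highest for 8 of 10 markers of sinusoidal endothelium, against 21.3% and 19.9% of all genes. The median CV of the endothelial list was 13.0%, and without PBS 2 it was 8.37% and the median r went from 0.47 to 0.10. The summed level of the Kupffer list, all 11 measured, ran from 295 CPM in PBS 2 to 453 in PBS 3, and their part in the genes highest in PBS 3 was not tested. It averaged 399 ± 60.2 CPM and that of the stellate list 543 ± 19.1 CPM (SD, n = 6). Mesothelial Msln and Upk3b, at 0.524 to 3.15 CPM, were lowest in PBS 2.

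Genes of the basic machinery varied by small amounts but in close step. All 25 cytosolic ribosomal protein genes were lowest in PBS 2 and 24 were highest in PBS 5. Their median CV was 12.7% and their median r 0.93. Of all genes, 21.3% were lowest in PBS 2 and 24.99% highest in PBS 5. Rps2 had 306 CPM in PBS 2 and 463 in PBS 5, and Rpl5, the steadiest (CV 5.22%), 133 and 151 CPM. Of 20 nuclear-encoded respiratory chain genes 19 were lowest in PBS 2 and 17 highest in PBS 5 (median r 0.87), and without PBS 2 their median CV went from 9.38% to 5.96%. The ATP synthase subunit Atp5b ranged from 962 to 1334 CPM. Of 14 proteasome genes 12 were lowest in PBS 2, and without that library the median r of the list went from 0.58 to -0.05.

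PBS 2 also had the highest level of Neat1, the nuclear RNA that builds paraspeckles, at 1083 CPM against 163 to 366 CPM. Of 29 replication-dependent histone genes measured, 16 were lowest in PBS 2, against 21.3% of all genes, and the median CV was 21.7%. Small noncoding RNA genes showed no shared pattern (152 of 717 measured, median CV 22.1%, median r 0.06). Cell cycle genes were near the floor, with Mki67 at 0.953 to 3.40 CPM, and their median CV of 26.9% fell to 15.4% with the counting part removed.

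**Figure D5:**
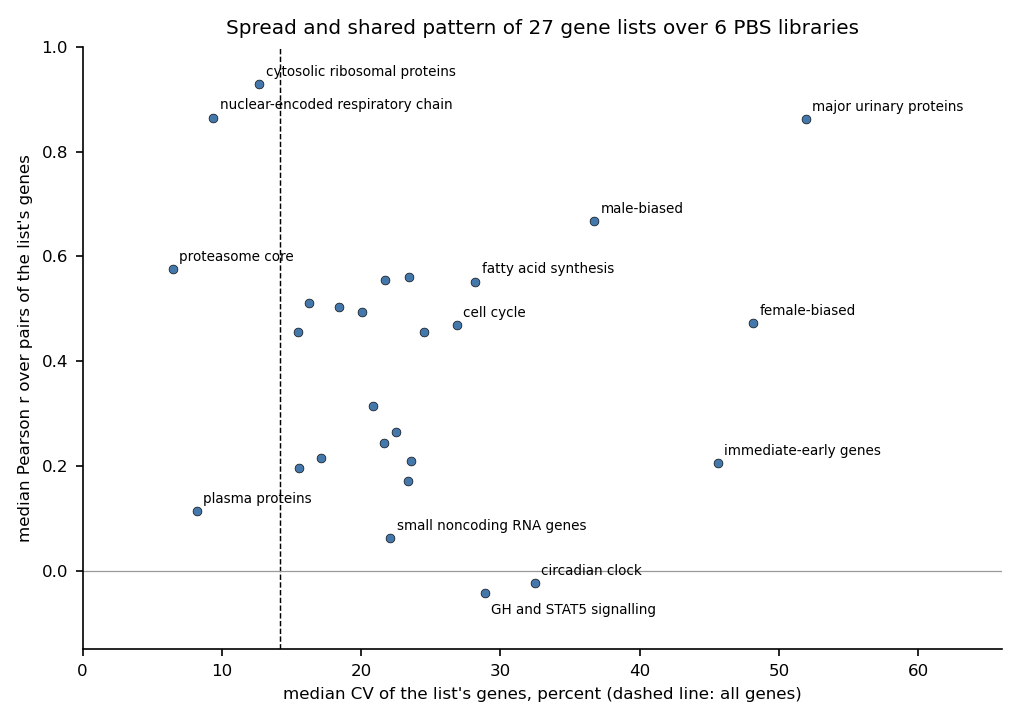
Each point is 1 of 27 gene lists, with the median CV of its genes in percent on the x axis, the median Pearson r over pairs of its genes on the y axis, and a dashed line at the median CV of all genes. Major urinary proteins lie at the upper right (51.9%, 0.86), ribosomal proteins at the upper left (12.7%, 0.93), and clock genes at the lower right of centre (32.5%, -0.02).

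Families were also defined by the stem of the gene symbol, without chosen lists. Of 532 families with at least 4 measured genes, 46 had a median r of at least 0.5. The highest median CVs were those of Gadd (71.1%), Gsta (59.0%), Mup (51.9%), Cyp4a (46.8%), Cyp3a (37.0%) and Saa (36.8%), though the stem Gadd also takes in Gadd45gip1, a mitochondrial protein with a CV of 12.7%. In Cyp4a the PPARA targets and the male-biased Cyp4a12a and Cyp4a12b were high in different libraries, and the median r was -0.36. The highest median r were those of Ugt1a (0.999), Tuba (0.89), Myl (0.87), Rpl (0.87), Mup (0.86) and Ces2 (0.85).

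For Ugt1a, glucuronosyltransferases made from 1 locus, members share up to 878 bases of exon, so the same reads can count for several. The tubulins Tuba4a (112 to 217 CPM), Tuba1c (25.02 to 63.8 CPM) and Tuba1b (12.2 to 22.5 CPM) were each lowest in PBS 2 and highest in PBS 5. Of 4 carboxylesterase genes of the Ces2 group 3 were lowest in PBS 5, against 23.6% of all genes. Ces2e had 50.5 CPM there and 87.1 to 157 CPM elsewhere. In Cyp3a, PBS 4 and PBS 5 were each lowest for 2 of 4 genes, against 18.3% and 23.6% of all genes.

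Of the 255 genes with a CV of at least 50%, 176 fell into 10 groups of at least 10 genes that shared a pattern over the libraries (average linkage, cut at r = 0.7). The groups were formed from these same values, so a highest or lowest library shared within a group follows from how they were made. Of the 255, 50 were highest in PBS 1, 35 in PBS 2 and 33 in PBS 3. A further 46 were highest in PBS 4 and 77 in PBS 5, while 62 were lowest in PBS 5 and 58 in PBS 1. In the biggest group, 49 genes were all highest in PBS 5, against 24.99% of all genes. Its most abundant members were Agxt2l1, a lyase of phosphoethanolamine, at 758 CPM against 179 to 241 CPM, the proteoglycan Sdc1 at 463 against 146 to 213 CPM, Alas1, Nnmt, which methylates nicotinamide, and the decarboxylase Ddc. The 4 globin genes, Asns, Gsta1 and Gadd45g were in this group too.

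The next group held 35 genes highest in PBS 1 (20 genes) or PBS 2 (15 genes), among them Mt1, Mt2, Tef, Junb, Sphk2, Dbp, Per3, Egr1 and Socs3. A group of 10 with Arrdc3, Fkbp5, Nr1d1, Nr1d2, Klf10 and Eif4ebp3 differed in that every gene was lowest in PBS 5. Arrdc3, a regulator of membrane receptors, had 509 and 476 CPM in PBS 2 and PBS 1 and 26.4 CPM in PBS 5, and Fkbp5, a chaperone induced by glucocorticoids, 121 CPM in PBS 1 and 21.8 in PBS 5.

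The 13 genes highest in PBS 3 joined Marco and Cyp26a1 with the macrophage factor Spic, the lectin Siglece, Cd300e and the formyl peptide receptors Fpr2 and Fpr3. The models of Fpr2 and Fpr3 overlap and had the same CPM in every library but PBS 3 (2.66 and 2.71 CPM), so they are not separate measurements. Siglece had 6.01 CPM in PBS 3 and 1.68 to 2.00 CPM elsewhere, and Spic 4.39 against 0.905 to 1.90 CPM. A group of 12 highest in PBS 1 held Cyp2a5 (543 CPM, against 169 to 354 CPM), Cyp4a10, Cyp4a14, Cyp2b9, Fbxo31, Acss3 and Abcd2. Another 10 genes, each lowest in PBS 5, held Lars2, Cyp3a11, Cyp2c38, the retinol dehydrogenase Rdh9 and Trib3.

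Mup genes made up 8 of a group of 13 that were all highest in PBS 4, together with Setdb2 and Scara5. Selenbp2, Mup21, Moxd1, Serpina4-ps1 and Socs2 led a group of 11, of which 10 were highest in PBS 4 and 10 lowest in PBS 1. Lipin 1 (Lpin1), which makes diacylglycerol, led 12 genes with Pklr, Elovl6 and the adipokine Serpina12; it had 963 CPM in PBS 4 and 50.6 CPM in PBS 5. The remaining 11 genes, with Neat1, Gm6484 and AC154660.1, were all highest in PBS 2. Among them Slc22a19, AC122119.1, Gm15968, Lgals12 and Gm15967 had nearly the same CPM in every library, each 1.72 CPM in PBS 2. They may not be separate measurements, so the size of this group is uncertain.

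Among 28 gene pairs written down for this purpose 26 could be measured. They were chosen with earlier results of these data known, so their p-values are not independent support. In the exact permutation test 8 passed an adjusted p of 0.05 by Pearson's r and 9 by Spearman's rho. A positive r was found for 22 pairs. With 6 libraries the smallest p the exact test can give is 0.00139. The 8 include Arntl with Dbp and Cyp4a10 with Cyp4a14, for which the libraries fell into separate clusters of 2 and 4. No r over all 6 is given for these. The r given above for Arntl with Npas2 and for Hba-a1 with Hbb-b1 also spans separate sets of 2 and 4 libraries. Within the 4 libraries other than PBS 1 and PBS 6, r was 0.90 for Cyp4a10 and Cyp4a14, and this was not tested. Pairs often taken to go together did not pass: Igf1 and Igfals (r = 0.32, adjusted p = 0.48), Fasn and Scd1 (r = 0.69, adjusted p = 0.22), Pck1 and G6pc (r = 0.69, adjusted p = 0.22), Fos and Egr1 (r = 0.74, adjusted p = 0.19), Sqle and Idi1 (r = 0.55, adjusted p = 0.33) and Hamp and Hamp2 (r = 0.55, adjusted p = 0.31), all by the exact permutation test. With so few libraries, a p above the threshold does not show that these genes vary independently.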

How the data were processed

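Total RNA from liver was depleted of ribosomal RNA and sequenced, per the labels' protocols, and each library was made from 250 ng of RNA with 12 PCR cycles. The authors deposited raw counts of exonic reads per gene, 1 column per library. The submitters' processing notes name STAR 2.4.0i and the build mm10, while the counting program, its annotation and its use of strand are not stated in the labels or the table. Only the 6 PBS columns were used, with 19523104 to 23278931 counts each.

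Genes with at least 10 counts in all 6 libraries were scaled to CPM with trimmed-mean factors (edgeR 4.0.16), and the CV is the SD over the mean of CPM. No contrast was tested, so edgeR's quasi-likelihood test was not used; its intercept-only fit gave a common biological coefficient of variation of 0.177. Exon lengths and coordinates came from GENCODE M21 on the same build (36308 of 38087 IDs matched), and promoters from RefSeq (GRCm38.p6). Lists, families and groups of variable genes are described by counts, median CV and median Pearson r of log2 CPM. Gene pairs had two-sided exact permutation tests over 720 orderings of the libraries with Benjamini-Hochberg adjustment. Genes were named by rule: the 20 most abundant per length, the 25 highest and 10 lowest in CV, the extreme members of each list, all clock, GH and cell type genes, the gene pairs and the leading members of families and groups. Other genes in the text were chosen after their values were seen. The members, lists and pairs were chosen with earlier results of these data known.

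The spread between libraries holds biological and technical parts together. PCR reads carry no molecular identifiers, so the Poisson part removed covers counting error only. The calculations were tested on simulated counts. Alternatives were library totals alone, DESeq2 1.42.0 size factors, other count minimums, a robust CV, the counting part removed, another tree cut, and each library left out. A few genes that the rule would name are not reported here.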

Additional observations from a re-analysis of the deposited data

Results flagged for a closer look

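Of 121 genes checked for a single library far from the other 5 (gap to the nearest library over the whole range above 0.625), 20 were found, 16 of them among the 25 genes highest in CV. Chance gives about 1 in 20 groups, and genes picked for a high CV are more likely to have such a library. PBS 5 was that library for 10 genes: it was highest for AC151602.1 (1107 CPM), Cdc42ep5 (8.12 CPM), Gsta1 (16.0 CPM), Hamp (732 CPM), Hba-a1 (66.6 CPM), Hba-a2 (30.0 CPM), Hbb-b1 (162 CPM), Hbb-b2 (16.9 CPM) and Tff3 (28.5 CPM), and lowest for Gc (6306 CPM). PBS 3 was highest for Cxcl13 (8.33 CPM), Cyp26a1 (100 CPM), Marco (29.7 CPM) and a U2 gene (80.5 CPM). PBS 1 was highest for AC115697.1 (167 CPM) and Lars2 (390 CPM), PBS 6 for Cyp2c40 (51.4 CPM) and Cyp2c69 (24.6 CPM), PBS 2 for Jun (18.6 CPM) and PBS 4 for Moxd1 (269 CPM). Over all genes measured, 6.85% had such a gap, and 28.2% of the 255 with a CV of at least 50%.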

How the results depend on the processing

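Scaling by library totals or by DESeq2 size factors left 250 and 253 genes with a CV of at least 50%, and 48 and 45 families and 8 and 9 gene pairs past their thresholds. The count minimum changed the counts of variable genes. With at least 50 counts in all 6 libraries, 115 genes had a CV of at least 50%, 12 of at least 100%, the median CV was 12.2% and 4 groups of variable genes remained, whereas with at least 1 count the values were 1778, 70, 17.4% and 69. The median CV was 11.6% with the counting part removed and 11.8% as a robust CV, under which 11 genes reached 100%. Without division by length, 13 of the 20 most abundant genes stayed among the 20 highest, and on the 2000 genes highest in CPM the first component carried 39.2%. Leaving out each library in turn gave 222 to 308 genes with a CV of at least 50%, 14 to 26 of at least 100% (14 without PBS 5), a median CV of 12.8 to 14.7%, 8 to 10 lists over a median CV of 25%, 9 to 12 lists and 45 to 56 families over a median r of 0.5, 7 to 13 groups of variable genes and 19 or 20 of the 20 most abundant genes. Of the 25 genes highest in CV, 14 stayed among the 25 highest without PBS 5, 7 under the robust CV, and 13 and 8 with at least 50 and at least 1 count. The robust CV moved 32 of 84 CVs of single genes by more than their spread. The count minimums moved 0, but with at least 50 counts only 60 of these genes were left. A count minimum changes only the scaling of a gene that stays in, so this does not test its CV. Counting error limits the CV of the rarest genes most. No paired analysis was possible because the results come from 1 group and no test between groups.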
